A study of Mus musculus with 10 samples.

Results

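The genes described here are 8 components of the leukaemia inhibitory factor (LIF) pathway in mouse embryonic stem (ES) cells, taken by name from the deposited count tables: Lifr, Il6st, Jak1, Stat3, Socs3, Pim1, Pim3 and Ptpn11. They make up 8 of the 24015 genes in each table, and all 8 passed the filter on low counts that left 14220 genes for testing. The cells hold a reporter for activity of the Wnt/β-catenin pathway and were derived, per the labels, from the inner cell mass of the blastocyst. RNA-seq was run on 10 libraries in 5 groups of 2, and every medium contained LIF. The serum group grew in serum with LIF. The first 2i group had 5 to 6 passages in 2i, a medium that combines a GSK3 inhibitor (3 µM) with PD, an inhibitor of the ERK pathway (1 µM). The long 2i group had more than 13 passages in 2i. The serum return group had more than 13 passages in 2i and then 6 in serum. The second 2i group had 13 passages in 2i, 6 in serum and then 4 to 5 in 2i again. All cultures grew on gelatin-coated plates and were split about every 48 h. No group lacked LIF, so the comparisons are between media and passage histories and not between LIF and no LIF.

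LIF binds the receptor chain Lifr, which pairs with the shared signalling chain gp130, the product of Il6st. Janus kinases attached to the chains, Jak1 chief among them in ES cells, then phosphorylate the transcription factor Stat3, which enters the nucleus and switches on target genes. Socs3 is a target that binds gp130 and shuts the signal off, Pim1 and Pim3 are target genes that encode serine/threonine kinases, and Ptpn11 encodes the phosphatase Shp2, which links gp130 to the ERK pathway. In mouse ES cells in serum, LIF acting through Stat3 sustains self-renewal. RNA levels report on the transcripts of these genes and not on phosphorylated Stat3 or on any protein.

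The libraries held 16809070 to 27766338 reads assigned to genes. All 10 ES cell markers examined, Pou5f1 and Nanog among them, had counts in every library and together reached 4952 to 7464 CPM (counts scaled to a library total of 1000000), with the lowest sums, 4952 and 5013 CPM, in long 2i. Summed markers of fibroblasts and feeder cells stood at 21.6 to 67.2 CPM and those of endoderm at 4.31 to 16.1 CPM. Summed markers of endothelium and blood were 4.14 to 6.28 CPM in first and second 2i, 16.9 to 18.4 CPM in long 2i and 19.3 to 27.5 CPM in both serum groups, with the haemoglobin gene Hbb-b1 at 0 in all libraries. These sums differ between the culture groups, the endoderm sums being highest in long 2i and serum return, and their part in the results below was not tested. By a chi-square of raw counts per degree of freedom, the serum return libraries differed from each other more (24.3) than other pairs did (3.29 to 4.57). This measure grows with depth. The ribosomal RNA gene Rn45s enters it, at 2496 CPM in replicate 1 of serum return and 15480 CPM in replicate 2. The value without Rn45s was not computed, so a difference over many genes is not shown. Leaving Rn45s out changed none of the 96 calls on the 8 genes. Nothing in the labels says that the libraries of a group came from separate cultures, so p-values rest on a spread between libraries that could be technical.

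The first set of values concerns the media as a whole: the 6 libraries in 2i against the 4 in serum. Of the 8 genes, 7 were lower in 2i and none was higher, at an adjusted p under 0.05 in edgeR's quasi-likelihood test, against 76.7% of all tested genes that changed, 38.4% upward and 38.3% downward. The kinase gene Pim3 fell 3.67-fold, Lifr 2.01-fold and the feedback inhibitor Socs3 1.87-fold. Pim3 and Lifr were the only members to pass 2-fold, a size that 23.3% of all genes reached. Ptpn11 fell 1.33-fold, Jak1 1.31-fold, Pim1 1.28-fold and Il6st 1.13-fold. Stat3 itself was 1.04-fold lower, which did not pass (adjusted p = 0.0992). The members' median log2 fold change was -0.40, against 0.01 over all tested genes, while the median size of the change was 0.40 for both. All 8 log2 fold changes were below 0, that of Stat3 being the one that did not pass.

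**Figure D1:**
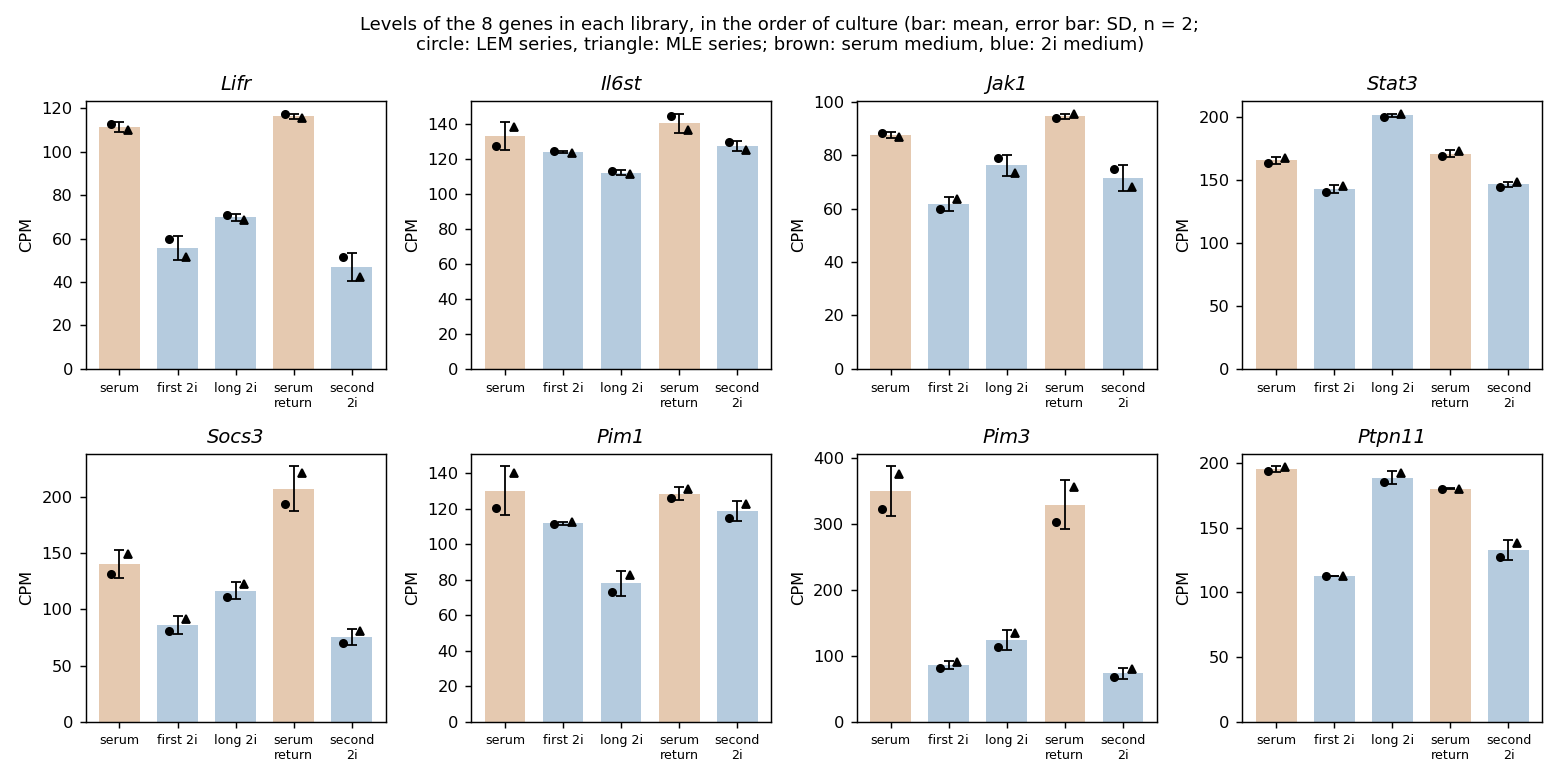
Level of each of the 8 genes in CPM (linear axes from 0) in the 5 culture groups in culture order; bars are group means, error bars the SD (n = 2), circles replicate 1 and triangles replicate 2. Pim3, Lifr, Jak1 and Socs3 have every 2i library below every serum library, whereas Stat3 peaks in long 2i and Pim1 is lowest there. The share of all tested genes that separate by medium in this way was not counted.

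The receptor chains are taken first. Lifr, the chain that gives the receptor its specificity for LIF, stood at 113 and 109.8 CPM in serum and at 59.7 and 51.6 CPM in first 2i (replicates 1 and 2 here and below). It stood at 70.8 and 68.7 CPM in long 2i, at 117 and 116 CPM in serum return and at 51.3 and 42.45 CPM in second 2i. All 6 libraries in 2i, from 42.45 to 70.8 CPM, lay below all 4 in serum, from 109.8 to 117 CPM. How many of all tested genes separate by medium in this way was not counted, here or for the members below. In order of level the groups ran serum return, serum, long 2i, first 2i and second 2i, and each neighbouring pair differed except serum return and serum (adjusted p = 0.545). Lifr fell 2-fold in first 2i against serum (SE of the log2 change 0.0764, adjusted p = 4.68e-10) and 2.48-fold in second 2i against serum return (log2 -1.31, SE 0.0778, adjusted p = 1.04e-11). The step between first and second 2i was the weakest, with a log2 change of -0.25 in second over first 2i (adjusted p = 0.021), and was lost without first 2i replicate 1 (adjusted p = 0.29) or second 2i replicate 2 (adjusted p = 0.363), in a range of 0.000133 to 0.363 over 16 alternatives.

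Il6st, which encodes the gp130 chain shared by the receptors of the interleukin-6 family, moved little. It stood at 128 and 139 CPM in serum, 125 and 124 CPM in first 2i, 113 and 111 CPM in long 2i, 145 and 137 CPM in serum return and 129.9 and 126 CPM in second 2i. Its highest library held 1.3 times the CPM of its lowest, the narrowest span of the 8 genes, and its ranges in 2i and in serum overlapped. In the order serum return, serum, second 2i, first 2i and long 2i, the only neighbours to pass were long and first 2i, with a log2 difference of -0.14 for long over first 2i (adjusted p = 0.0322). That call was lost without any 1 of the 4 libraries compared (adjusted p = 0.0552 to 0.131) and with DESeq2 (adjusted p = 0.0507), in a range of 0.00214 to 0.131 over 16 alternatives. The fall in long 2i against serum, -0.25, was firmer (adjusted p = 0.000646).

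Scaled by exon length, the ratio of Lifr to Il6st transcripts was 0.885 ± 0.07 in serum, 0.473 ± 0.046 in first 2i, 0.656 ± 0.0061 in long 2i, 0.874 ± 0.025 in serum return and 0.387 ± 0.043 in second 2i (SD, n = 2 each). Transcripts of the LIF-specific chain were thus nearly as abundant per length as those of the shared chain in both serum groups and less abundant in every 2i library, where the ratio ran from 0.357 to 0.66, against 0.836 to 0.935 in the serum libraries.

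Next come the kinase and the transcription factor. Jak1, the tyrosine kinase bound to gp130, stood at 88.2 and 86.8 CPM in serum, 59.97 and 63.7 CPM in first 2i, 78.9 and 73.5 CPM in long 2i, 93.8 and 95.2 CPM in serum return and 74.9 and 67.9 CPM in second 2i. The libraries in 2i, none above 78.9 CPM, did not reach those in serum, none below 86.8 CPM. First 2i was lowest, 1.42-fold below serum (log2 -0.50, SE 0.0637, adjusted p = 6.05e-07). Long 2i lay 1.15-fold below serum (adjusted p = 0.0083), a call that was lost without long 2i replicate 2 (adjusted p = 0.111, range 0.000216 to 0.111 over 16 alternatives). In the order serum return, serum, long 2i, second 2i and first 2i, the neighbours serum return and serum (adjusted p = 0.183) and second and long 2i (adjusted p = 0.231) did not pass.

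Stat3, the transcription factor at the end of the chain, followed another course. It stood at 163.5 and 168 CPM in serum, 141 and 146 CPM in first 2i, 200.5 and 203 CPM in long 2i, 169 and 173 CPM in serum return and 145 and 148 CPM in second 2i. Long 2i was thus above all other libraries, and first and second 2i below all others. Stat3 fell 1.16-fold in first 2i against serum (log2 -0.21, SE 0.0498, adjusted p = 0.000807) and rose 1.41-fold in long against first 2i (log2 0.49, SE 0.0497, adjusted p = 3.65e-08). It was 1.22-fold higher in long 2i than in serum (adjusted p = 3.72e-05), the only member that stood higher there. Neither second against first 2i (adjusted p = 0.623) nor serum return against serum (adjusted p = 0.507) passed. The absence of a call over all 2i libraries therefore joins 2 lower groups and 1 higher group.

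The feedback inhibitor Socs3 and the kinase genes Pim1 and Pim3 are the members introduced above as targets of Stat3. The 250 bases that precede their annotated starts are given here, 5′ to 3′ on the gene's own strand, from RefSeq on GRCm38.p6, which is not the build of the counts (mm9). They are shown because the binding letters of Stat3 can be looked for in them. Capitals mark the palindrome TTCNNNGAA, the core letters bound by STAT dimers, which reads the same on both strands. The Socs3 window is chr11:117969367-117969616 on the minus strand, the Pim1 window chr17:29490535-29490784 on the plus strand and the Pim3 window chr15:88861944-88862193 on the plus strand.
Socs3: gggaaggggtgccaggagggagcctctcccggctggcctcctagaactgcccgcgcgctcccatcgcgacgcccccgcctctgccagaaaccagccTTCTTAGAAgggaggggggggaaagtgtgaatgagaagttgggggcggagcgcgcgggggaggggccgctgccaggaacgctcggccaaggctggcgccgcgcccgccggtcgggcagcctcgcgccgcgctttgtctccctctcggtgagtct
Pim1: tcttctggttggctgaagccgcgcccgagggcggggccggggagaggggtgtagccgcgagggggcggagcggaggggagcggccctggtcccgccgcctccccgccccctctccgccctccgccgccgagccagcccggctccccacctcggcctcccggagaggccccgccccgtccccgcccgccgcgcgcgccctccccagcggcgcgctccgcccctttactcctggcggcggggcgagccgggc
Pim3: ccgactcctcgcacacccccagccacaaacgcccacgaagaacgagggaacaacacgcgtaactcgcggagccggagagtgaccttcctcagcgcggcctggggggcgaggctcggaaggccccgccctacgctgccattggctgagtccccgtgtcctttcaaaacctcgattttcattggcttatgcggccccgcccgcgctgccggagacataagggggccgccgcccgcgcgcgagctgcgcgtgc
All 8 genes were matched in the promoter table, with 10 windows because Lifr and Pim1 have 2 annotated starts each. Socs3 was the only member with a match, TTCTTAGAA, whose first base lies 154 bases before the annotated start. Of all 32851 promoter windows of this length, 7.02% held the palindrome. A match is a run of letters and not a measured binding site, and windows without one can be bound elsewhere.

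Socs3, whose protein binds gp130 and inhibits its Janus kinases, stood at 131 and 149 CPM in serum, 80.5 and 91.5 CPM in first 2i, 111 and 122 CPM in long 2i, 194 and 222 CPM in serum return and 70.45 and 80.8 CPM in second 2i. The 2i libraries, none above 122 CPM, lay below the serum libraries, none below 131 CPM. The gene fell 1.63-fold in first 2i against serum (log2 -0.71, SE 0.0925, adjusted p = 1.27e-05) and 2.74-fold in second 2i against serum return (log2 -1.46, SE 0.093, adjusted p = 9.08e-09). Serum return was above every other group and exceeded original serum 1.48-fold (log2 0.57, adjusted p = 0.000415). The log2 difference was 0.66 without serum return replicate 1 (adjusted p = 0.000201) and 0.47 without replicate 2 (adjusted p = 0.00222), and the call held under all 16 alternatives (adjusted p from 2.84e-26 to 0.00464). The smallest of its called differences, long 2i 1.2-fold below serum (adjusted p = 0.0206), was lost without long 2i replicate 1 (adjusted p = 0.13) or serum replicate 2 (adjusted p = 0.169), in a range of 1.15e-08 to 0.169 over 16 alternatives.

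Pim3 showed the widest range of the 8 genes. It stood at 322 and 375.5 CPM in serum, 81.96 and 90.2 CPM in first 2i, 113 and 134 CPM in long 2i, 302 and 355 CPM in serum return and 67.8 and 79.6 CPM in second 2i. Its highest library held 5.54 times the CPM of its lowest, and no 2i library came near a serum library. The fall was 4.05-fold in first 2i against serum (log2 -2.02, SE 0.134, adjusted p = 3.6e-06) and 4.45-fold in second 2i against serum return (log2 -2.16, SE 0.137, adjusted p = 3.17e-06). Long 2i lay 1.44-fold above first 2i (adjusted p = 0.0118), a call lost without first 2i replicate 1 (adjusted p = 0.0726) or long 2i replicate 2 (adjusted p = 0.055), in a range of 4.09e-23 to 0.0726 over 16 alternatives. Serum return against serum did not pass (adjusted p = 0.656), nor did second against first 2i (adjusted p = 0.261).

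Pim1, the other kinase of this family among the members, did not share that course. It stood at 120.4 and 139.9 CPM in serum, 111 and 112.5 CPM in first 2i, 73.1 and 82.8 CPM in long 2i, 126 and 131 CPM in serum return and 115 and 123 CPM in second 2i. Long 2i was the lowest group, below all other libraries, and lay 1.67-fold below serum (log2 -0.74, SE 0.0717, adjusted p = 1.53e-08) and 1.43-fold below first 2i (log2 -0.52, SE 0.0719, adjusted p = 3.28e-06). The fall in first 2i against serum was 1.16-fold (adjusted p = 0.00895) and was lost without serum replicate 2 (adjusted p = 0.231, range 5.81e-06 to 0.231 over 16 alternatives). The difference of second 2i did not pass against serum return (adjusted p = 0.159) or against serum (adjusted p = 0.105), though second 2i against serum passed without serum replicate 1 (adjusted p = 0.0103, range 0.00616 to 0.857 over 16 alternatives). In the GENCODE M21 annotation 488 bases of Pim1 exons overlap an antisense gene, and the counting's strand setting is not given in the sources used here, so reads of these 2 genes may be mixed.

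Ptpn11, the phosphatase gene, stood at 194 and 197 CPM in serum, 113 and 113 CPM in first 2i, 185 and 192 CPM in long 2i, 180.3 and 179.9 CPM in serum return and 127 and 138.5 CPM in second 2i. The libraries formed a low set, first and second 2i, and a high set that joined long 2i with both serum groups. Ptpn11 fell 1.73-fold in first 2i against serum (log2 -0.79, SE 0.053, adjusted p = 3.28e-11) and was 1.67-fold higher in long than in first 2i (log2 0.74, SE 0.0532, adjusted p = 2.44e-10). The difference of long 2i from serum did not pass (log2 -0.05, 95% interval -0.16 to 0.06, adjusted p = 0.396), nor did that of serum return from long 2i (log2 -0.07, 95% interval -0.17 to 0.04, adjusted p = 0.257).

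The same values can be read along the culture history, step by step. On first entry into 2i, against serum, 7 of the 8 genes fell and none rose, where 70.0% of all genes changed and 34.9% fell. Only Il6st did not pass (log2 -0.10, adjusted p = 0.111), and it did pass without serum replicate 1 (adjusted p = 0.0371, range 0.0252 to 0.618 over 16 alternatives). Between first and long 2i, with no change of medium, all 8 genes changed, against 61.2% of all genes. Lifr, Jak1, Stat3, Socs3, Pim3 and Ptpn11 rose, as did 30.4% of all genes, while Pim1 and Il6st fell, as did 30.8%, and no member reached 2-fold. Of the 6 that rose, Lifr, Jak1, Socs3 and Pim3 still lay below serum in long 2i, Stat3 lay above it, and the difference of Ptpn11 from serum did not pass.

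On return to serum, against long 2i, 6 genes rose and Stat3 alone fell (log2 -0.24, adjusted p = 0.000243), where 71.4% of all genes changed, 35.4% upward and 36.0% downward. Ptpn11 did not pass (adjusted p = 0.257). The largest rises were those of Pim3 (2.66-fold, adjusted p = 2.88e-05), Socs3 (1.78-fold, adjusted p = 1.92e-06), Lifr (1.67-fold, adjusted p = 3.25e-08) and Pim1 (1.65-fold, adjusted p = 1.89e-08). On the second entry into 2i, against serum return, 7 genes fell and none rose, where 65.6% of all genes changed and 33.3% fell. Pim3, Socs3 and Lifr passed 2-fold, a size that 22.0% of all genes reached. Pim1 did not pass, and the fall of Il6st (log2 -0.14, adjusted p = 0.0308) was lost without serum return replicate 1 (adjusted p = 0.226), second 2i replicate 1 (adjusted p = 0.0556) or second 2i replicate 2 (adjusted p = 0.18) and with no filter on low counts (adjusted p = 0.0518), in a range of 0.00154 to 0.226 over 16 alternatives. Successive steps share a group, so their values are not independent of each other.

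**Figure D2:**
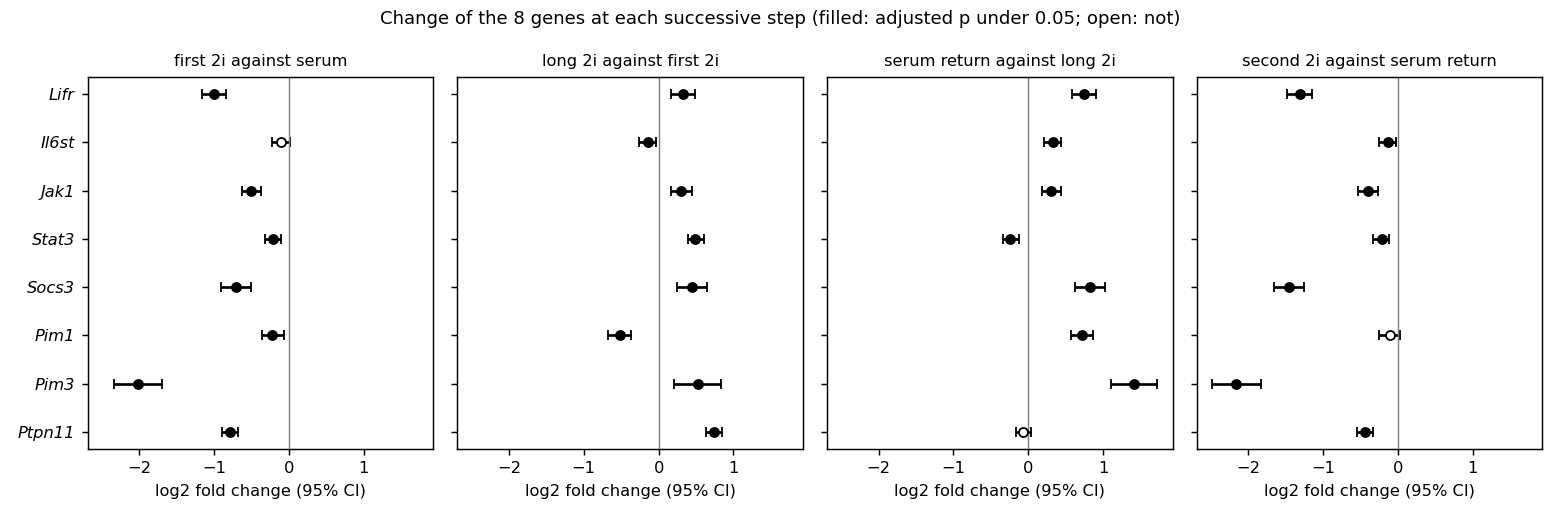
Log2 fold change of each gene at the 4 successive culture steps, with 95% intervals from the model fitted to all genes; filled points passed an adjusted p of 0.05. At entry into 2i 7 of the 8 genes fell each time, all but Il6st the first time and all but Pim1 the second, with Pim3 at -2.02 and -2.16. Stat3 and Ptpn11 rose in long 2i without a change of medium.

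The next pair compares the 2 serum groups, before and after 2i. Of the 8 genes only Socs3 differed between serum return and serum, at 208 ± 19.7 CPM in serum return and 140.3 ± 12.6 CPM in serum (SD, n = 2 each), where 31.0% of all genes changed. That share was 16.8% without serum return replicate 1 and 19.4% without serum replicate 2, with Socs3 called in both. For the other 7 genes the log2 differences ran from -0.12 (Ptpn11, 95% interval -0.22 to -0.01, adjusted p = 0.0908) to 0.11 (Jak1, 95% interval -0.02 to 0.24, adjusted p = 0.183). The members' median size of change was 0.08, against 0.19 over all tested genes.

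The first and the second exposure to 2i were compared in the same way. Between second and first 2i 3 of the 8 genes differed, where 37.7% of all genes did: Lifr was 1.19-fold lower in second 2i, Jak1 1.15-fold higher (adjusted p = 0.0157) and Ptpn11 1.18-fold higher (adjusted p = 0.00166). Of all genes 18.1% were higher and 19.6% lower, and the share that changed was 24.4% without second 2i replicate 2. The Jak1 call was lost without first 2i replicate 1 (adjusted p = 0.142) or second 2i replicate 1 (adjusted p = 0.205), in a range of 0.000501 to 0.205, and the Ptpn11 call without second 2i replicate 2 (adjusted p = 0.0539, range 3.13e-07 to 0.0539). Socs3 (adjusted p = 0.151) and Pim3 (adjusted p = 0.261) did not pass, yet both passed in the fit of these 2 groups alone (adjusted p = 0.044 and 0.016) and with no filter on low counts (adjusted p = 0.0195 and 0.0022), so that 5 genes were called there. Their ranges over 16 alternatives were 0.000383 to 0.584 and 4.94e-06 to 0.662.

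The remaining pairs mostly involve long 2i. Against long 2i, second 2i had 7 genes changed, where 56.4% of all genes changed, 28.1% upward and 28.4% downward: Lifr, Stat3, Socs3, Pim3 and Ptpn11 were lower, and Pim1 (1.52-fold, adjusted p = 5.68e-07) and Il6st (1.14-fold, adjusted p = 0.00893) higher. The Il6st call was lost without second 2i replicate 1 (adjusted p = 0.0714) or long 2i replicate 2 (adjusted p = 0.0516), in a range of 0.000117 to 0.0714. Long 2i against serum had 6 genes lower and Stat3 higher, where 68.9% of all genes changed, 33.9% downward and 35.1% upward. Second 2i against serum had 6 lower and none higher, where 66.4% changed and 32.8% fell. In first 2i against serum return, all 8 genes were lower, where 68.0% of all genes changed and 34.3% were lower. Of these, the Pim1 call (1.15-fold, adjusted p = 0.0153) was lost without first 2i replicate 1 (adjusted p = 0.0734) or serum return replicate 2 (adjusted p = 0.0937), in a range of 1.73e-05 to 0.0937, and the Il6st call (1.13-fold, adjusted p = 0.0066) without serum return replicate 1 (adjusted p = 0.0848, range 4.27e-05 to 0.0848).

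Whether the second response to 2i differed from the first was tested as an interaction: the log2 change from serum return to second 2i minus that from serum to first 2i. It passed for 3 of the 8 genes, where it passed for 39.4% of all genes. Socs3 fell more the second time, with log2 changes of -1.46 against -0.71, a difference of -0.75 (SE 0.131, adjusted p = 0.000569). The Socs3 levels in second and first 2i did not pass as different, while the levels before entry did, at 208 CPM in serum return and 140.3 CPM in serum. Ptpn11 fell less the second time, with log2 changes of -0.44 against -0.79, a difference of 0.35 (SE 0.0745, adjusted p = 0.000831). Lifr fell more, 2.48-fold against 2-fold, a log2 difference of -0.31 (SE 0.109, adjusted p = 0.0285), but this was lost with DESeq2 (adjusted p = 0.0524) and without first 2i replicate 1 (adjusted p = 0.202), second 2i replicate 2 (adjusted p = 0.22), serum replicate 2 (adjusted p = 0.0732) or serum return replicate 1 (adjusted p = 0.0745) or 2 (adjusted p = 0.0506), in a range of 0.000183 to 0.22 over 15 alternatives. Pim3, with the deepest falls, had a difference of -0.14 and a 95% interval from -0.58 to 0.30, which leaves room for a difference either way.

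**Figure D3:**
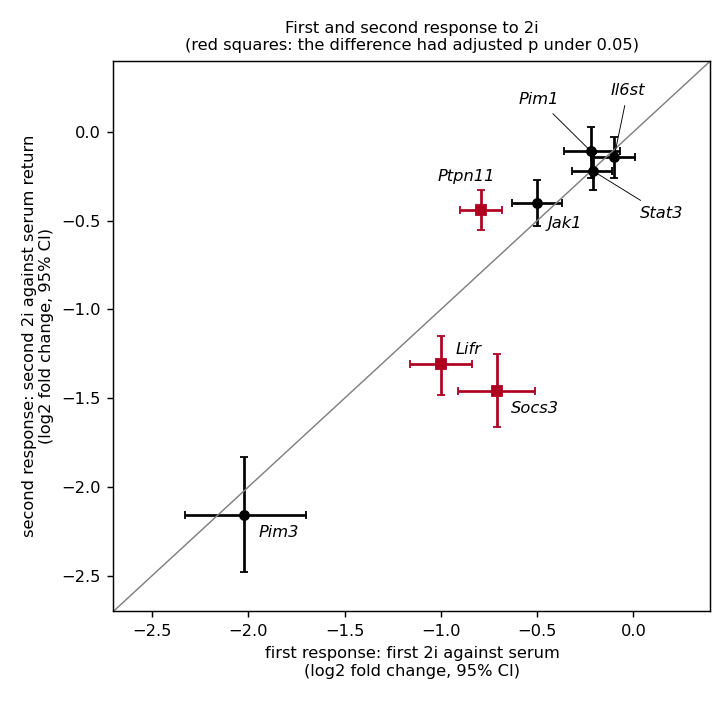
Response of each gene to its second entry into 2i (second 2i against serum return) and to its first (first 2i against serum), as log2 fold changes with 95% intervals, where squares mark a difference between responses that passed and the line marks equal responses. Socs3 lies deeper the second time (-1.46 against -0.71) and Ptpn11 shallower (-0.44 against -0.79).

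Levels between genes can be set side by side only per length of transcript, as RPKM (CPM divided by the merged exon length in kilobases). In serum, Pim3 was the most abundant at 143.7 ± 15.6 RPKM, followed by Socs3 (54.97 ± 4.93 RPKM), Pim1 (41.8 ± 4.43 RPKM), Ptpn11 (34.8 ± 0.367 RPKM), Stat3 (26.6 ± 0.501 RPKM), Jak1 (17.8 ± 0.2 RPKM), Il6st (12.2 ± 0.713 RPKM) and Lifr (10.7 ± 0.213 RPKM; SD, n = 2 each). In first 2i, Pim1 (35.96 ± 0.285 RPKM), Pim3 (35.5 ± 2.41 RPKM) and Socs3 (33.7 ± 3.03 RPKM) lay level with each other, and Lifr was again the lowest, at 5.36 ± 0.55 RPKM. The inducible genes of the pathway were thus more abundant per length than its receptor chains in both states. Exon lengths came from an annotation of another build and merge the exons of a gene's protein-coding transcripts, so these values rank genes only roughly.

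For the 3 members whose group means spanned at least 1 on the log2 scale, genes with the most similar profiles over the 10 libraries were looked up. The 9897 candidates had a mean of at least 5 CPM. The 8 members and genes with provisional, accession-like, ribosomal protein or histone names were left out. Closest to Lifr were Gadd45a, Ppp1r9a and Ndrg1, with root mean square differences of 0.104, 0.111 and 0.114 on the log2 scale and Pearson's r of 0.989, 0.989 and 0.977. Closest to Socs3 were Celf5 (0.104, r = 0.984), Ndrg1 (0.153, r = 0.957) and Slc7a5 (0.16, r = 0.976). Closest to Pim3 were Rgs12 (0.132, r = 0.992), Ccdc136 (0.172, r = 0.991) and Abca1 (0.184, r = 0.982). The libraries fall into groups of 2 with like values, so the r values describe group patterns.

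The rest of the pathway was read from lists of its other parts. Of 13 other receptor chains and ligands of the gp130 family, 9 were tested, and between all 2i and all serum 3 were higher and 5 lower, where 38.4% of all genes were higher and 38.3% lower. Cntfr, the receptor chain for ciliary neurotrophic factor, averaged 0.967 CPM in 2i and 64.2 CPM in serum (log2 -6.25, adjusted p = 1.58e-22). The 3 genes that rose were Osm, Lif and the interleukin-6 receptor chain Il6ra (log2 1.43, adjusted p = 1.63e-12). Osm, which encodes the ligand oncostatin M, averaged 7.28 CPM in 2i and 0.275 CPM in serum (log2 4.66, adjusted p = 2.64e-15), and Lif 9.16 CPM in 2i and 2.55 CPM in serum (log2 1.73, adjusted p = 9.13e-12). Lif was highest in long 2i, at 14.3 ± 0.391 CPM (SD, n = 2). Il27ra, the interleukin-27 receptor chain, averaged 1.85 CPM in 2i and 5.65 CPM in serum (log2 -1.66, adjusted p = 1.75e-10). Among the other ligand genes Clcf1 was lower in 2i (log2 -2.45, adjusted p = 2.19e-06), at a mean of at most 1.05 CPM in any group, and Ctf1 did not pass (adjusted p = 0.503). Osmr, Il6, Il11 and Cntf had too few reads to test, none above 0.422 CPM in any library.

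Among the 9 other Janus kinases and STATs, 3 were higher in 2i and 4 lower, near the share of all genes that changed (76.7%). Jak3, the Janus kinase known from lymphocytes, stood out: it reached 185 ± 6.41 CPM in first 2i, 314 ± 18.5 CPM in long 2i and 103 ± 3.76 CPM in second 2i, and 53.9 ± 2.63 CPM in serum and 52.3 ± 5.49 CPM in serum return (SD, n = 2 each). Stat5b fell 2.15-fold over all 2i (adjusted p = 7.5e-12) and Stat2 rose 1.67-fold (adjusted p = 1.65e-13). Stat4 was lowest in long 2i, at 1.12 ± 0.0103 CPM, against 11.8 to 20.2 CPM as means of the other groups, and its fall over all 2i (log2 -1.39, adjusted p = 1.27e-11) joins groups that differ in this way. Stat5a and Stat3 exons overlap by 72 bases on opposite strands in GENCODE M21.

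Of 15 other inhibitors of the pathway, the SOCS, PIAS and phosphatase genes, 6 were higher in 2i and 7 lower, with a median log2 change of -0.07, where 38.4% of all genes were higher and 38.3% lower. Cish, a STAT target that inhibits cytokine receptors, fell 2.63-fold (adjusted p = 2.1e-08), and Socs5 fell 1.9-fold (adjusted p = 1.26e-09). Neither fall passed in long 2i against serum, where Cish differed by a log2 of -0.28 (adjusted p = 0.238) and Socs5 by -0.01 (adjusted p = 0.949). Ptprj, a receptor-type tyrosine phosphatase, rose 2.53-fold (adjusted p = 3.86e-13) and Pias2, a SUMO ligase of the family named for inhibiting STATs, 1.62-fold (adjusted p = 1.31e-13). Of 13 adaptors that lead from gp130 to the MAPK and PI3K pathways, 5 were higher and 5 lower, a share close to the 76.7% of all genes that changed, with a median of 0.00, and DESeq2's size factors left 4 higher. Pik3r1, a regulatory subunit of PI3-kinase, rose 2.83-fold (adjusted p = 1.67e-13), while the catalytic subunit genes Pik3cb and Pik3ca fell 1.52-fold (adjusted p = 2.2e-11) and 1.35-fold (adjusted p = 1.76e-08). Shc1, an adaptor that couples receptors to Ras, fell 1.47-fold (adjusted p = 6.35e-12).

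The 20 other genes known as Stat3 targets did not share 1 direction between media: 8 were higher in 2i and 11 lower, where 38.4% of all genes were higher and 38.3% lower, with a median log2 change of -0.27, against 0.01 over all genes. The homeobox gene Gbx2 averaged 12.3 CPM in 2i and 125 CPM in serum (log2 -3.59, adjusted p = 3.5e-22). Myc, the growth regulator, averaged 8.44 CPM in 2i and 87.4 CPM in serum (log2 -3.46, adjusted p = 3.5e-22). Tfcp2l1, a naive pluripotency factor downstream of Stat3, moved the other way, with 2038 CPM in 2i and 843.9 CPM in serum (log2 1.24, adjusted p = 1.04e-18), as did Pramel6, with 8.67 CPM in 2i and 0.399 CPM in serum (log2 3.41, adjusted p = 2.96e-11).

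By step, 12 of these 20 targets fell and 3 rose in first 2i against serum, where 34.9% of all genes fell and 35.1% rose. In long against first 2i 12 rose and 5 fell, where 30.4% of all genes rose and 30.8% fell. In serum return against long 2i 11 rose and 7 fell, where 35.4% rose and 36.0% fell, and in second 2i against serum return 10 fell and 9 rose, where 33.3% fell and 32.3% rose. Pramel6 was highest in long 2i, at 21.2 ± 0.233 CPM, against 0.996 ± 0.444 CPM in first 2i and 3.86 ± 0.29 CPM in second 2i (SD, n = 2 each). Tfcp2l1 was lower in long than in first 2i (1.66-fold, adjusted p = 3.79e-11), while Stat3 was higher there. Fos, an immediate early gene, was highest in second 2i, at 131 ± 0.801 CPM, against 5.04 ± 0.763 CPM in serum, 1.74 ± 0.119 CPM in first 2i, 3.24 ± 0.648 CPM in long 2i and 6.34 ± 0.874 CPM in serum return (SD, n = 2 each). Its second response exceeded its first by 5.88 on the log2 scale (SE 0.214, adjusted p = 1.08e-13). Over the list, the signed log2 change was higher the second time for 11 genes and lower for 3, where it was higher for 18.4% of all genes and lower for 21.0%. A higher value is not always a stronger response. Gbx2 fell both times, with log2 changes of -2.95 the second time and -4.87 the first, so its second fall was the smaller one.

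**Figure D4:**
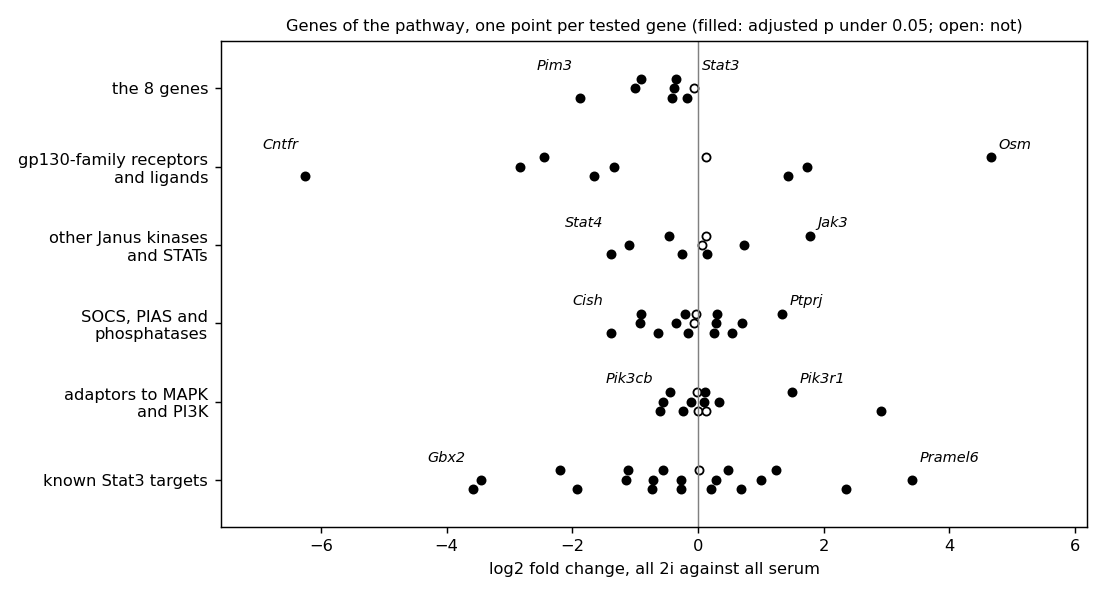
Log2 fold change between all 2i and all serum libraries for the tested genes of the 5 pathway lists and the 8 members; each point is a gene, and filled points passed an adjusted p of 0.05. The lists spread to both sides of 0, from Cntfr at -6.25 to Osm at 4.66, while 7 of the 8 members lie below 0 and passed.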

How the data were processed

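Total RNA from mouse ES cells was sequenced as 10 libraries, grouped by the culture media in the labels. The deposited values are raw counts of reads for each gene, as whole numbers. CASAVA 1.8.2, TopHat2 2.0.4, HTSeq 0.5.4p5, DESeq2 and build mm9 are named in the submitters' processing notes; for the annotation, the strand setting and the read layout no source used here gives a value. HTSeq's 5 summary categories were left out of library sizes. Gene counts were 51.16 to 54.81% of all records, and reads placed more than once, 33.41 to 36.51%, were counted for no gene.

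Counts were tested with edgeR 4.0.16 in R 4.3.3: filterByExpr (minimum count 10, minimum total 15), TMM factors, and a robust quasi-likelihood fit over all 10 libraries with group as the only term (5 residual degrees of freedom). The 12 contrasts were the 10 pairs of groups, the second minus the first response, and the mean of 3 2i groups minus the mean of 2 serum groups. P-values are two-sided, with Benjamini-Hochberg adjustment over 14220 genes. Levels are CPM after TMM scaling, and RPKM use merged exon lengths of GENCODE M21. The test was tried on simulated counts with far fewer changed genes than were called between media. That trial therefore did not check scaling or calls at the extent of change seen here. Alternatives were DESeq2's size factors (RLE), no filter, the DESeq2 1.42.0 Wald test, the 2 groups alone, no Rn45s, the title series as a block and each library left out. Members and lists were chosen with earlier results of these data known. Of the lists, the text names, per comparison, genes among up to 4 that passed with the largest changes and at least 5 CPM in the higher group. Tfcp2l1 between long and first 2i, Fos between responses, Il6ra, Clcf1 and Ctf1 over all 2i, and the receptor and ligand genes too low to test were added after their values were seen.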

Additional observations from a re-analysis of the deposited data

Results flagged for a closer look

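For 3 of the 8 genes the second response to 2i (second 2i against serum return) differed from the first (first 2i against serum) by a test of the difference itself, edgeR's interaction contrast. The same contrast passed for 39.4% of all genes. Socs3 fell by 1.46 on the log2 scale the second time and by 0.71 the first, a difference of -0.75 (adjusted p = 0.000569), and it was called under all 15 alternatives, with adjusted p from 8.83e-22 to 0.00199. Ptpn11 fell by 0.44 the second time and by 0.79 the first, a difference of 0.35 (adjusted p = 0.000831), called under all 15 alternatives with adjusted p from 1.96e-08 to 0.011. Lifr fell 2.48-fold the second time and 2-fold the first, a log2 difference of -0.31 (adjusted p = 0.0285), called under 9 of 15 alternatives. The second response to 2i followed an earlier long exposure and the first did not, and it was measured after 4 to 5 passages against 5 to 6, so history and passage number cannot be told apart.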

How the results depend on the processing

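No call on a single gene changed direction under any alternative. Outside of leaving out libraries, 544 of 560 values kept their side of the threshold, 3 lost a call and 13 gained one; with 1 library left out, 930 of 960 kept it, 28 lost a call and 2 gained one. DESeq2's size factors and the removal of Rn45s changed none of 96 calls each. In second against first 2i, 37.7% of all genes were called as reported. The share was 29.4% with no filter, 48.8% with the title series as a block and 42.0% with the 2 groups alone. Between second and first 2i, 5 members were called with no filter on low counts, 5 with the title series as a block and 5 in the fit of these 2 groups alone, against 3 as reported, and 1 to 3 with 1 library left out. Over all genes that comparison gave 3556 to 5438 calls with 1 library left out, against 5357, and serum return against serum gave 2437 to 4477, against 4407; the lowest counts came without second 2i replicate 2 and without serum return replicate 1.

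The labels do not say that a title series marks a shared culture or day, so the series were not treated as pairs in the reported fit. Deviations of same-series libraries from their group means correlated at 0.099 to 0.168 over the 10 pairs of groups. All 10 correlations were above 0, a hint from the data of a difference shared by the series, which was not tested. With the series as a replicate block 9 of 96 calls were gained and none lost, and 3 members instead of 1 were called between serum return and serum, the additions being Pim3 and Ptpn11. Over all genes the share called in that comparison was 43.4% with the block, against 31.0% without it. The other gains were Il6st in first 2i against serum, Pim1 in second 2i against serum return and against serum (adjusted p = 0.0137 and 0.00616), Socs3 and Pim3 in second against first 2i, Pim3 in the difference of responses (adjusted p = 0.0258) and Stat3 over all 2i (adjusted p = 0.0202). With 2 libraries a group, calls on differences as small as those of Il6st depended on single libraries. So did some calls on larger differences. Among them were Pim3 in long against first 2i (log2 0.52) and Lifr in the difference of responses (log2 -0.31).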

Other observations

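Within groups, some members differed in the same direction between the title series. The MLE library was the higher one in 5 of 5 groups for Socs3 (1.1 to 1.15 times the LEM library's CPM), Pim3 (1.1 to 1.19 times), Pim1 (1.01 to 1.16 times) and Stat3 (1.01 to 1.03 times). It was the lower one in all 5 groups for Lifr (0.827 to 0.986 times). What the series names stand for is not stated in the labels. The ratios of Socs3, Pim3 and Lifr are smaller than their differences between all 2i and all serum libraries. For Pim1 the widest ratio was as large as its called fall in first 2i against serum (1.16-fold). The widest ratio of Lifr was of the size of its called difference between second and first 2i (1.19-fold).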
